A study of Homo sapiens with 6 samples.

Results

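The genes described here encode 9 proteins that liver cells secrete: GDF15, FGF21 and INHBE, which are known as stress hormones, the angiopoietin-like factors ANGPTL4, ANGPTL6 and ANGPTL8, and the liver products LECT2, SELENOP and AGT. They were chosen by name, with earlier results of these data known. All 9 were found among the 24241 genes measured, each with 1 probe set (a group of probes summarised as 1 value). RNA of HepG2, an established cell line from a human liver cancer, grown in RPMI medium, was hybridised to 6 Affymetrix arrays. In 3 samples the cells had been given the solvent DMSO, and in the other 3 they had received 0.75 µM verteporfin, both for 24 hours. Verteporfin is a light-activated porphyrin drug that is also used to disturb the binding of YAP to TEAD factors, and no exposure to light is recorded in the labels. Levels are RMA values on the log2 scale, so that a difference of 1 is a doubling of measured signal. The 6 arrays were normalised to the same distribution, with a median of 4.83, and signal below that value was not separated from background.

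GDF15 is a distant member of the TGF-beta family that acts in the hindbrain through GFRAL and RET and lowers food intake. FGF21 acts on fat and brain through FGF receptors with the co-receptor beta-klotho (KLB), and INHBE encodes the beta-E subunit that forms activin E, a liver hormone that restrains fat breakdown in adipose tissue. These hormones are known targets of the transcription factors ATF4 and CHOP (encoded by DDIT3), which act when protein folding or amino acid supply fails. ANGPTL4 and ANGPTL8 control lipoprotein lipase, the enzyme that clears triglyceride from blood. SELENOP carries selenium from liver to other organs, and AGT encodes angiotensinogen, the precursor of the angiotensin peptides that raise blood pressure.

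Under verteporfin, INHBE and GDF15 rose, AGT and SELENOP fell, and the other 5 genes did not pass the test. INHBE was 5.46-fold higher and GDF15 3.14-fold higher, while AGT was 7.36-fold lower and SELENOP 2.60-fold lower. Thus 4 of the 9 genes passed (44.4%), against 28.5% of all genes, with 2 higher and 2 lower, where 14.3% of all genes were higher and 14.3% lower. Since the genes were chosen with earlier results of these data known, such shares are a description and not a test. Of the 7 members whose mean lay above the median signal, 4 passed (57.1%), a share near the 51.9% of all genes in that range. Neither of the remaining members passed, where 4.59% of genes at or below the median signal did. The median difference of the 9 genes was 0.05, and that of all genes was 0.00488. The 3 verteporfin arrays did not overlap the 3 DMSO arrays for 5 of the 9 genes, against 39.1% of all genes. Each gene was tested with limma across all genes, and adjusted p denotes its Benjamini-Hochberg value over the 24241 genes. Whether replicates were separate cultures is not stated in the labels, so the tests rest on a spread between samples that may be technical. In bulk RNA, a change in the share of cells that make a transcript and a change in its amount per cell cannot be told apart.

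**Figure D1:**
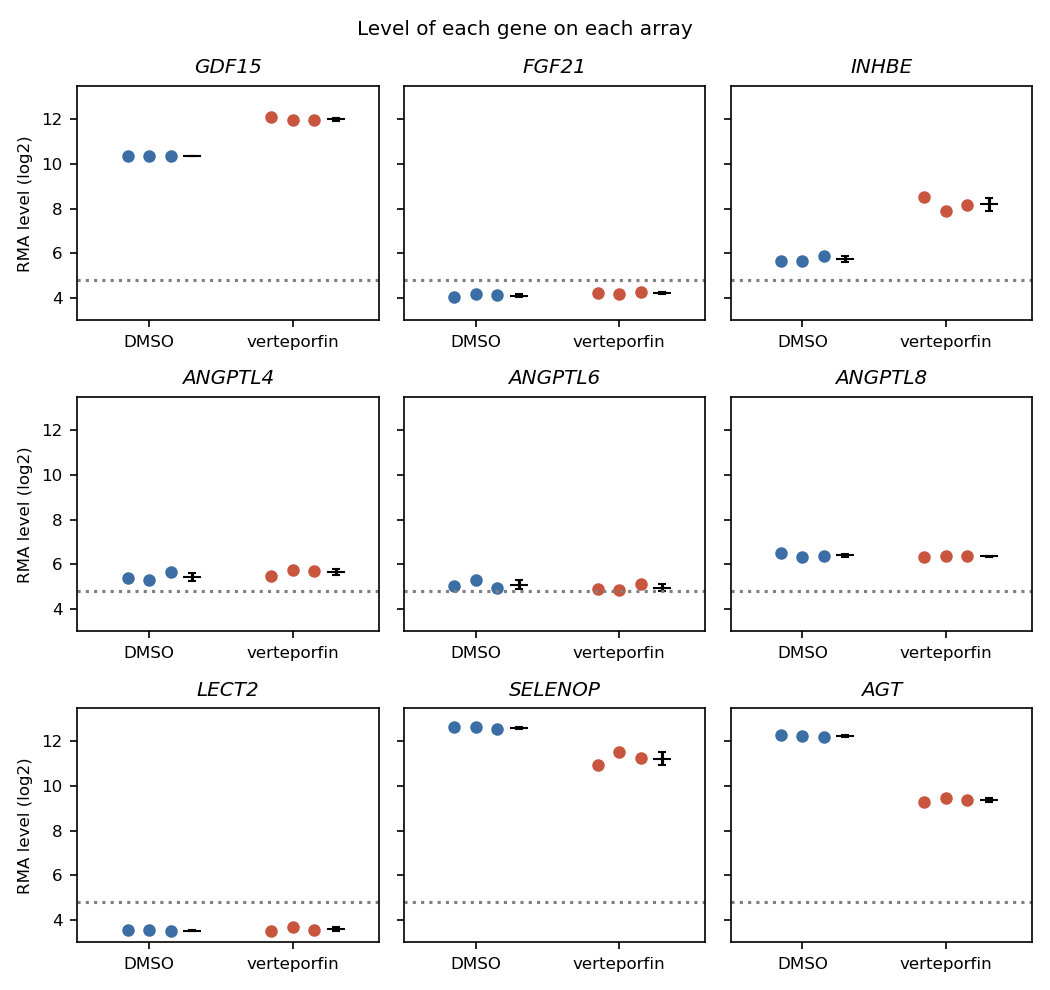
RMA level (log2) of each of the 9 genes on each array, DMSO in blue and verteporfin in red, with 1 point per array; the black dash and bar give the mean and SD of 3 arrays, and the dotted line marks the median signal of 4.83. GDF15 and INHBE are higher and SELENOP and AGT lower on all 3 verteporfin arrays, while FGF21 and LECT2 lie below the dotted line on all 6.

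Markers were read to check the cell type. Of 7 hepatocyte markers measured, 7 lay above the median signal and 6 fell, among them albumin, ALB (-0.83 ± 0.06 SE). The summed log2 level of these markers ranged from 84.8 to 85.0 in DMSO and from 73.4 to 75.2 in verteporfin, so it moved with AGT and SELENOP, and its part in their fall was not tested. Endothelial markers were below the median signal for 6 of 6 genes, with 0 past the threshold in limma and 0 at an unadjusted p under 0.05, and with summed levels of 24.0 to 24.3 in DMSO and 23.6 to 24.2 in verteporfin. Of the 6 fibroblast or stellate cell markers 0 passed, with 1 at an unadjusted p under 0.05, 5 were below the median signal, and the sums were 26.8 to 27.1 and 26.6 to 26.7. Of the 6 macrophage or leukocyte markers, the pan-leukocyte gene PTPRC was at 3.48 in DMSO and 3.44 in verteporfin, and 4 lay below the median signal. The 2 others, LYZ and CD68, were bright, with LYZ lower (-1.33 ± 0.12) and CD68 higher (0.26 ± 0.06). CD14 also fell, by 0.34 ± 0.07, although its DMSO mean (4.17) was under the median signal, and the sums of this list were 38.9 to 39.1 and 37.6 to 37.9.

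Among the stress hormones, GDF15 was already bright in DMSO. Its levels were 10.36, 10.36 and 10.37 in DMSO and 12.10, 11.96 and 11.98 in verteporfin. The groups were far apart, and the DMSO arrays were nearly equal (SD 0.0041). The difference was 1.65 ± 0.06 SE (95% interval 1.51 to 1.80, n = 3 arrays per group here and below, limma adjusted p = 2.38e-06). Only 0.800% of all genes had a greater difference.

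INHBE, the gene of the activin E subunit, was dim in DMSO but above the median signal, and it rose. Its levels were 5.68, 5.68 and 5.91 in DMSO and 8.51, 7.92 and 8.17 in verteporfin. All verteporfin arrays lay above all DMSO arrays, and the spread was wider under verteporfin (SD 0.30, against 0.13 in DMSO). The difference was 2.45 ± 0.15 SE (95% interval 2.10 to 2.79, limma adjusted p = 1.57e-05), and 0.223% of all genes had a greater one. With single arrays left out it ranged from 2.29 to 2.59.

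FGF21, the remaining hormone of this group, stayed in the range where signal was not separated from background. Its levels were 4.03, 4.16 and 4.15 in DMSO and 4.22, 4.16 and 4.28 in verteporfin. The lowest verteporfin array (4.164) was just above the highest DMSO array (4.162), a separation seen for 14.9% of genes at or below the median signal. The difference of 0.11 ± 0.07 SE did not pass (95% interval -0.05 to 0.27, limma adjusted p = 0.341), so any change in FGF21 was not detectable here.

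**Figure D2:**
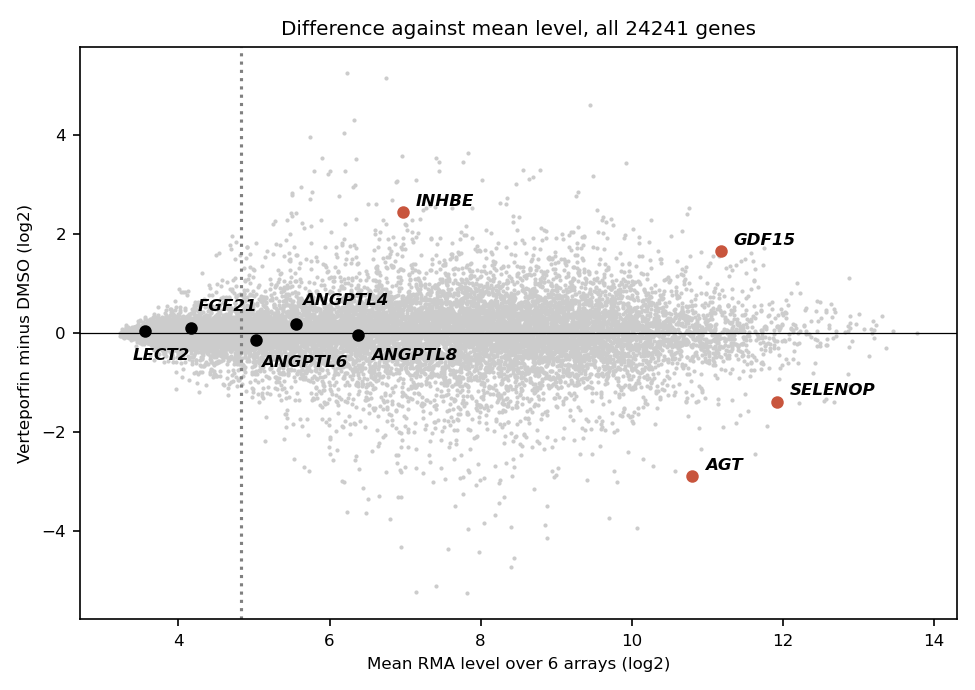
Verteporfin minus DMSO difference (log2) against the mean level over 6 arrays (log2) for all 24241 genes in grey, with the 9 genes named; red points passed the test, black points did not, and the dotted line marks the median signal of 4.83. INHBE, GDF15, AGT and SELENOP stand at the edges of the grey cloud, and the 5 genes in black lie near the line of no difference.

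INHBE and INHBC, which encodes the activin beta-C subunit, are direct neighbours in the RefSeq annotation of GRCh38.p14. INHBC fell from 6.90 ± 0.04 (SD) to 5.998 ± 0.10, a difference of -0.91 ± 0.07 SE (limma adjusted p = 5.57e-05). The other subunit genes did not pass. INHA was at -0.32 ± 0.10 (adjusted p = 0.0567), INHBB at -0.22 ± 0.14 and INHBA at 0.09 ± 0.10, with INHA and INHBA below the median signal. Of the 21 activin, BMP and GDF ligands and antagonists measured, 2 rose and 5 fell, with a median of -0.06. The share that passed was 33.3%, against 28.5% of all genes. Besides INHBC, the ligand BMP4 (-1.35 ± 0.16) and the activin antagonist follistatin, FST (-0.82 ± 0.12), fell, and TGFB1 rose (0.44 ± 0.06). Of these 21 genes 14 were below the median signal, of which 3 passed, where 4.59% of all genes in that range did. Of the 7 above it 4 passed (57.1%), a share near the 51.9% of all genes there.

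The annotation places the microRNA gene MIR3189 within GDF15. Its probe set rose from 5.96 to 7.46, by 1.51 ± 0.16 SE (limma adjusted p = 0.000248), and signal of the microRNA precursor and of its host transcript cannot be told apart on these arrays. Of the coding genes on either side of GDF15, PGPEP1 fell (-0.30 ± 0.08, adjusted p = 0.0226) and LRRC25 was at -0.10 ± 0.09 (adjusted p = 0.494). These neighbours were named after their values were seen.

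Of 32 measured transcription factors and coactivators described as regulators of these genes, 11 rose, 13 fell and 8 did not pass, with a median of -0.05. All 32 lay above the median signal, where 51.9% of genes passed, against 75.0% of this list. ATF4 rose by 0.88 ± 0.09 (limma adjusted p = 0.000192). The measured signal of DDIT3 was higher by 3.28 ± 0.17, starting below the median signal (4.15 in DMSO). The growth and stress factor EGR1 (2.86 ± 0.10) and the CCAAT-binding factor CEBPB (1.98 ± 0.09) rose, and the coactivator PPARGC1A fell (-2.22 ± 0.08). This list holds factors that act in either direction, and it was not tested as a set. It was also chosen with earlier results of these data known, so its share of 75.0% is a description only.

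Promoters were searched because the ATF4 and CHOP route acts through a composite DNA element. RefSeq promoter sequences of GRCh38.p14 were matched for 8 of the 9 genes, with 3 start sites for ANGPTL6, and the 250 bases before each start site were searched on both strands. The composite element of C/EBP and ATF factors was searched as TGATGNAA and was found in 4 of the 8 genes (FGF21, ANGPTL8, LECT2 and AGT), against 3.14% of all 35116 promoter windows. It was not found in the GDF15 window, and INHBE was not analysed here. In FGF21 the match lay 54 to 47 bases before the start and in AGT 97 to 90 bases before it. That of ANGPTL8 lay 126 to 119 bases and that of LECT2 206 to 199 bases before the start. These are genes that did not pass or, for AGT, fell, and a match is a description of the letters only. The window of GDF15, which rose, is shown with those of FGF21 and ANGPTL8, which carry the element and did not pass, and of AGT and SELENOP, which fell. They are given 5′ to 3′ on the gene's strand, and capitals mark TGATGNAA on either strand and the TATA motif, TATAAA.
GDF15: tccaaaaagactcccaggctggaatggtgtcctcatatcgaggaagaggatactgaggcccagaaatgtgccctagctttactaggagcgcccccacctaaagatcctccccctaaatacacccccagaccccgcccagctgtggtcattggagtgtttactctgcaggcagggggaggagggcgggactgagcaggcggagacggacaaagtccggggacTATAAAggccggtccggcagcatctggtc
FGF21: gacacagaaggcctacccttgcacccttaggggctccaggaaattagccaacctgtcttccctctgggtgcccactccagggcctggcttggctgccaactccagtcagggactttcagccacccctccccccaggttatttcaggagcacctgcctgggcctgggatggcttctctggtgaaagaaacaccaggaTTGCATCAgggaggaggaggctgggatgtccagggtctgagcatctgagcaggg
ANGPTL8: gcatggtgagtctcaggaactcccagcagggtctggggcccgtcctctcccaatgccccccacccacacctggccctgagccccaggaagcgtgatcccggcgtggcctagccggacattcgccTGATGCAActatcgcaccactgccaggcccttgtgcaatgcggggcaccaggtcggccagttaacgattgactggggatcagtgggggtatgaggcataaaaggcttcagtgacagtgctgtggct
AGT: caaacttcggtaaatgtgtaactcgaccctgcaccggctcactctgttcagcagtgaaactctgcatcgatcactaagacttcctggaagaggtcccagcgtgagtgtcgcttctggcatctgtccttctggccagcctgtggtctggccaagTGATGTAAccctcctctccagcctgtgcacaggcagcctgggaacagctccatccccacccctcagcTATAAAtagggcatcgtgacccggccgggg
SELENOP: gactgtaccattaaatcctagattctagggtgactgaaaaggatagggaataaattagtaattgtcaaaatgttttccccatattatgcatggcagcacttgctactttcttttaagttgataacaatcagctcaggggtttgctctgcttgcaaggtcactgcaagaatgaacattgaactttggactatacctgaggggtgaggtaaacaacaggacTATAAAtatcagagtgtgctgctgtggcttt

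These windows are chr19:18385908-18386157 (plus strand) for GDF15, chr19:48755274-48755523 (plus) for FGF21 and chr19:11239369-11239618 (plus) for ANGPTL8. That of AGT is chr1:230714123-230714372 (minus) and that of SELENOP chr5:42811893-42812142 (minus), all in GRCh38.p14. The TATA motif was added after the sequences were seen. It was found in 5 of the 8 genes (GDF15, ANGPTL4, ANGPTL6, SELENOP and AGT), against 10.7% of all windows, and did not overlap the composite element in any of them. The match of ANGPTL6 lay in only 1 of its 3 windows, on the opposite strand, 96 to 91 bases before the start. The first count is of genes and the share is of windows. In GDF15 the TATA motif lay 29 to 24 bases, in SELENOP 31 to 26 bases and in AGT 30 to 25 bases before the start. The PPAR element and the endoplasmic reticulum stress element were found in 0 of the 8 genes and in 0.0171% and 0.0740% of all windows. The TCF/LEF core, searched as CTTTGA, was found in LECT2 and in 1 of the ANGPTL6 windows, against 11.2% of all windows, and overlapped no other motif there.

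In limma 0 of the 3 angiopoietin-like members passed, and 0 had an unadjusted p under 0.05, where 28.5% of all genes passed and 51.9% of those above the median signal, as these 3 were. ANGPTL4, an inhibitor of lipoprotein lipase made in fasting, was at 5.41, 5.31 and 5.66 in DMSO and 5.50, 5.75 and 5.69 in verteporfin. The groups overlapped, and the difference was 0.19 ± 0.11 SE (95% interval -0.06 to 0.44, limma adjusted p = 0.281). ANGPTL6, also called angiopoietin-related growth factor, was at 5.02, 5.32 and 4.95 in DMSO and 4.91, 4.86 and 5.13 in verteporfin. It lay close to the median signal, the groups overlapped, and the difference was -0.13 ± 0.12 SE (95% interval -0.40 to 0.14, adjusted p = 0.511).

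ANGPTL8, which acts on lipoprotein lipase after feeding, had the narrowest interval of these 3. Its levels were 6.49, 6.35 and 6.37 in DMSO and 6.35, 6.38 and 6.36 in verteporfin. The groups overlapped, and the difference was -0.04 ± 0.06 SE (95% interval -0.19 to 0.11, limma adjusted p = 0.743), a range of measured signal within which a change could lie undetected. ANGPTL8 lies inside the gene DOCK6 in the RefSeq annotation, and DOCK6, named for its position, rose from 6.70 to 7.46, by 0.76 ± 0.06 SE (adjusted p = 6.78e-05). ANGPTL6 overlaps SHFL there, which fell by 0.38 ± 0.07 (adjusted p = 0.00362). Whether signal of these overlapping genes reaches the ANGPTL probes was not tested.

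Relatives of these factors and genes of lipoprotein lipase control were read beside them. ANGPTL5 (0.00033 ± 0.058) and ANGPTL7 (-0.16 ± 0.09) were below the median signal and did not pass. Of the 14 genes measured for the angiopoietin family and lipoprotein lipase regulation, 2 rose and 3 fell, with a median of -0.03. The 5 that passed (35.7% of 14, against 28.5% of all genes) were among the 8 above the median signal (62.5%, against 51.9% of genes in that range). The lipase inhibitor APOC3 fell (-2.89 ± 0.07), as did the proprotein convertase PCSK6 (-0.84 ± 0.07). SEL1L, which serves endoplasmic reticulum degradation and lipase maturation, rose (1.56 ± 0.07), as did endothelial lipase, LIPG (0.92 ± 0.10). ANGPTL4 is a known target of PPAR factors, and of 23 other PPAR targets 5 rose and 8 fell, with a median of -0.09. The share that passed was 56.5%, against 28.5% of all genes. Of the 18 above the median signal 12 passed (66.7%, against 51.9% of genes in that range). The lipid droplet coat PLIN2 rose (1.46 ± 0.06), and the peroxisomal enzymes EHHADH (-1.63 ± 0.09) and ACAA1 (-1.80 ± 0.13) and the fatty acid carrier FABP1 (-4.54 ± 0.21) fell. PPARA itself was at -0.36 ± 0.12 and did not pass (limma adjusted p = 0.0604).

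AGT, the source of all angiotensin peptides, was bright and fell steeply. Its levels were 12.28, 12.23 and 12.22 in DMSO and 9.27, 9.46 and 9.37 in verteporfin. The groups were separated by far more than the spread within them. The difference was -2.88 ± 0.07 SE (95% interval -3.04 to -2.72, limma adjusted p = 6.48e-07), and 0.182% of all genes had a lower one. With single arrays left out it ranged from -2.93 to -2.83.

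Of 12 other measured genes of the renin-angiotensin system, mostly peptidases, 2 fell and the others did not pass in limma, with a median of -0.02. The share that passed was 16.7%, below the 28.5% of all genes. Of the 6 above the median signal 2 passed (33.3%, against 51.9% of all genes in that range). Those that fell were the aminopeptidase ANPEP (-1.90 ± 0.09, adjusted p = 4.73e-06) and the prolyl peptidase PREP (-0.36 ± 0.07, adjusted p = 0.00456). The angiotensin-converting enzyme gene, ACE, lay at 4.09 in DMSO and 4.17 in verteporfin, below the median signal. The angiotensin receptors AGTR1 and AGTR2 were also below it in both groups. In the RefSeq annotation AGT lies between COG2, which fell (-0.62 ± 0.07), and CAPN9 (-0.13 ± 0.07), which did not pass, both named for their position.

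SELENOP, the selenium carrier of plasma, was bright in both groups and fell. Its levels were 12.63, 12.65 and 12.57 in DMSO and 10.93, 11.53 and 11.24 in verteporfin. All verteporfin arrays were lower, and they spread more (SD 0.30, against 0.04 in DMSO). The difference was -1.38 ± 0.14 SE (95% interval -1.70 to -1.06, limma adjusted p = 0.000176), and 1.54% of all genes had a lower one. With single arrays left out it ranged from -1.53 to -1.23.

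Other selenoproteins and selenium handling genes moved both ways. Of 28 measured, 7 rose and 9 fell (57.1% passed, against 28.5% of all genes), with a median of -0.15. Of the 25 above the median signal 15 passed (60%), a share near the 51.9% of all genes in that range. SELENOS (2.25 ± 0.08), a protein of endoplasmic reticulum degradation, and the cytosolic thioredoxin reductase TXNRD1 (1.43 ± 0.06) rose. The deiodinase DIO1 (-3.75 ± 0.15), which activates thyroid hormone, and the glutathione peroxidase GPX2 (-1.06 ± 0.07) fell. DIO1 ended at 4.92 in verteporfin, where signal nears the background range, and its fold is therefore one of signal rather than of transcript. The other secreted selenoprotein, plasma glutathione peroxidase GPX3, named after its value was seen, fell by 0.45 ± 0.08 (limma adjusted p = 0.00376).

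**Figure D3:**
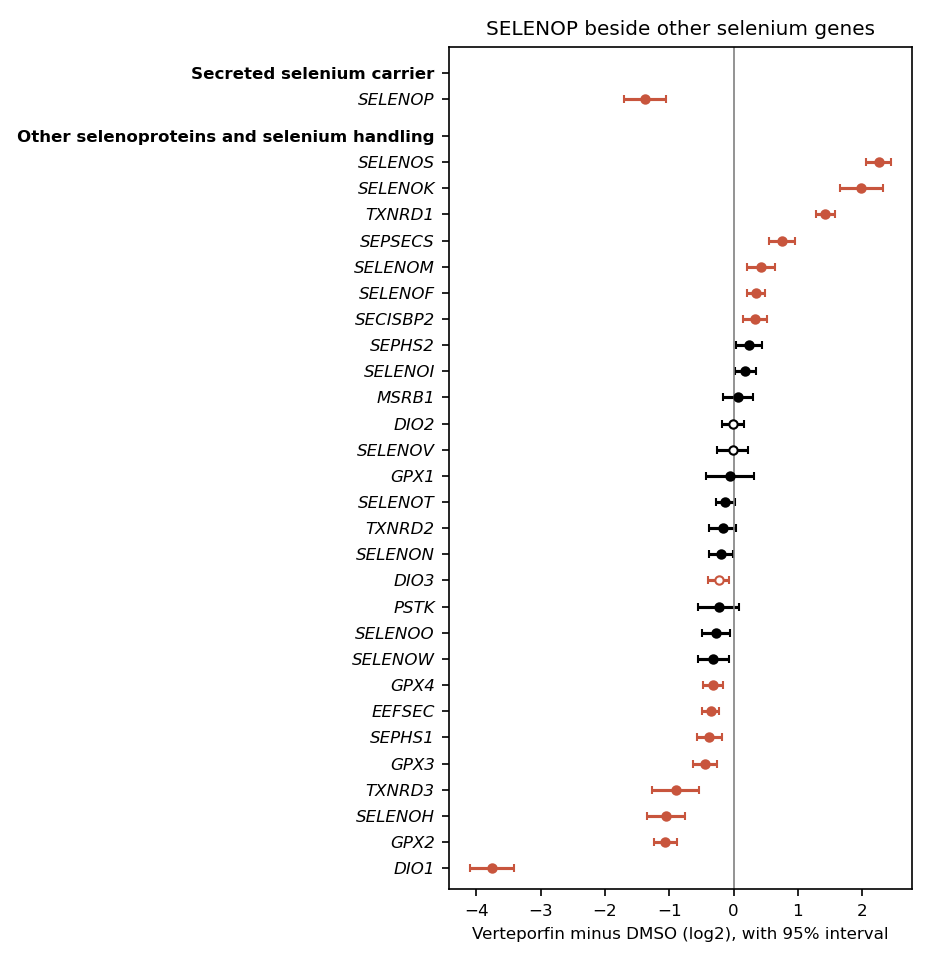
Verteporfin minus DMSO difference (log2) with its 95% interval for SELENOP and 28 other selenium genes, sorted by size; red passed the test, black did not, and open points have a mean at or below the median signal. SELENOP at -1.38 lies to the left with the 9 other genes that fell, while SELENOS at 2.25 leads the 7 that rose.

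LECT2, a leukocyte chemotaxin and a target of beta-catenin in mouse liver, was near the lower end of the arrays' range. Its levels were 3.54, 3.56 and 3.50 in DMSO and 3.52, 3.69 and 3.55 in verteporfin. The groups overlapped, only 7.65% of genes had a lower mean, and the difference was 0.05 ± 0.07 SE (95% interval -0.10 to 0.21, limma adjusted p = 0.670). CTNNB1, the beta-catenin gene, was bright and fell by 0.60 ± 0.06. It is named here for its link with LECT2, after its value was seen.

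Among the hormone receptors and co-receptors, KLB and the FGF receptor genes were lower. KLB, the co-receptor of FGF21, was at 9.22, 9.15 and 9.29 in DMSO and at 6.33, 6.25 and 6.36 in verteporfin, a fall of 7.50-fold (-2.91 ± 0.07 SE, limma adjusted p = 6.14e-07). FGFR4 (-2.12 ± 0.16) and FGFR1 (-0.91 ± 0.07) fell as well, as did FGFR3 (-1.75 ± 0.16) and FGFR2 (-0.58 ± 0.08). Both means of FGFR2 lay below the median signal (4.72 in DMSO and 4.14 in verteporfin). LRP8, the receptor that takes up SELENOP in brain and testis, rose by 0.78 ± 0.07, in the direction opposite to SELENOP itself.

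The GDF15 receptor GFRAL was at 3.52 in both groups and its partner RET at 4.17 in DMSO and 4.14 in verteporfin, all below the median signal. ACVR1C, also called ALK7 and described as the receptor of activin E, was at 4.11 and 4.03. Of the shared activin receptors, ACVR1B fell (-0.42 ± 0.06), ACVR2B rose (0.47 ± 0.12, adjusted p = 0.0249) and ACVR2A did not pass (0.05 ± 0.09) in limma. Of the 21 receptors and co-receptors 3 rose and 6 fell (42.9% passed, against 28.5% of all genes), with a median of -0.04. Below the median signal lay 11 of the 21, and 8 of the 10 above it passed (80%, against 51.9% of all genes in that range). FGFR2, FGFR3, GFRAL, RET and the activin receptors were named after their values were seen.

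**Figure D4:**
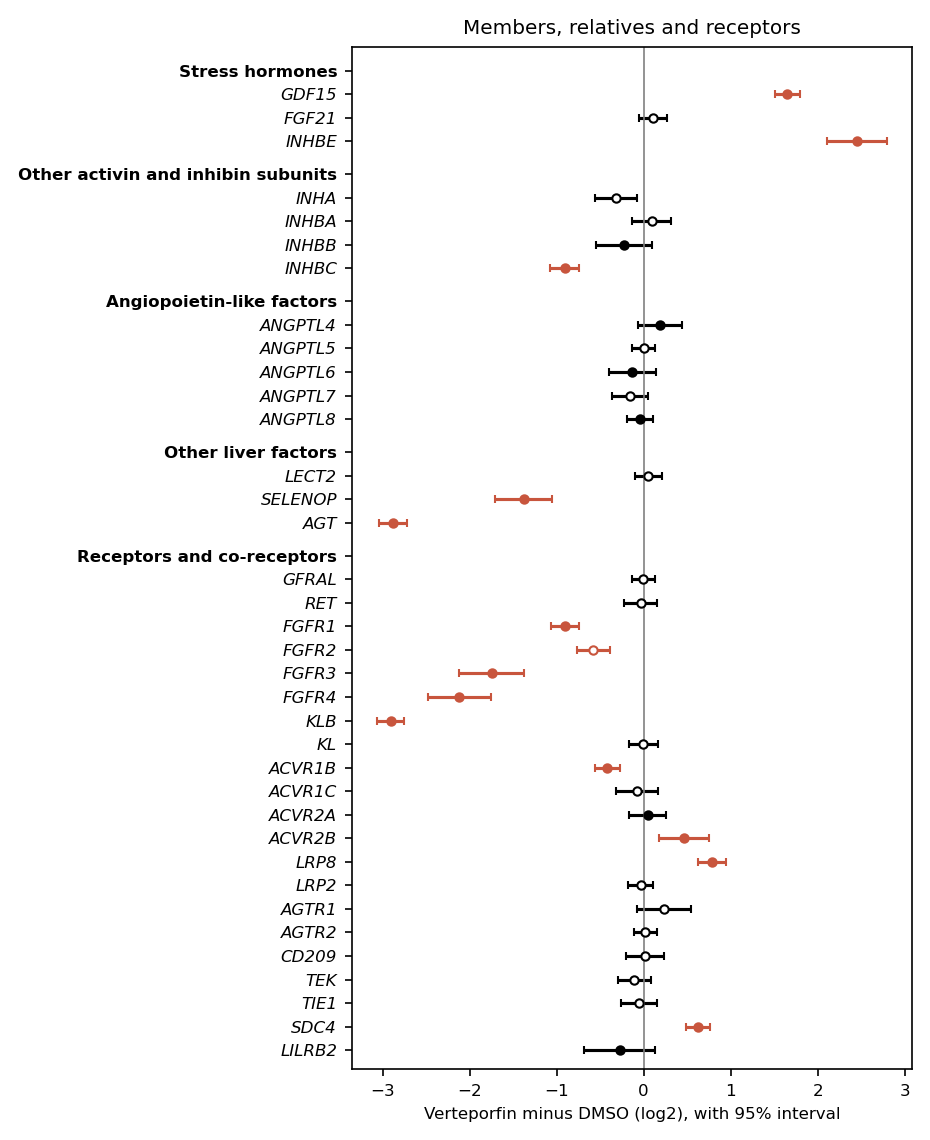
Verteporfin minus DMSO difference (log2) with its 95% interval for the 9 genes, the other activin and inhibin subunits, ANGPTL5, ANGPTL7 and 21 receptors and co-receptors; red passed the test, black did not, and open points have a mean at or below the median signal. INHBE and GDF15 lie far to the right, and KLB, AGT and FGFR4 far to the left.

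Other liver hormones were read beside these genes. Of 30 measured, 6 rose and 12 fell (60% passed, against 28.5% of all genes), with a median of -0.05. Of the 22 above the median signal 17 passed (77.3%, against 51.9% of all genes in that range), and the list was not tested as a set. IGFBP1, the insulin-like growth factor binding protein, rose by 4.61 ± 0.07, and the secreted endoplasmic reticulum protein MANF by 1.92 ± 0.08. The ghrelin receptor antagonist LEAP2 was lower by 2.55 ± 0.08 in measured signal, to a verteporfin mean of 4.26 below the median signal, and transthyretin, TTR, fell by 2.40 ± 0.10.

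The genes whose profiles over the 6 arrays were nearest to each member that changed were found as the smallest root mean square distance after centring each gene on its mean. For AGT they were the fibrinogen chain FGG (distance 0.0531 log2 units), APOC3 (0.0730) and SMIM24 (0.0792). For SELENOP they were USP13 (0.0592), MAML2 (0.0686) and ALDH7A1 (0.0687). INHBE lay nearest to CPEB4 (0.0883), DDIT4 (0.106) and TCP11L2 (0.114). GDF15 lay nearest to FAM219A (0.0412), RABAC1 (0.0435) and IBTK (0.0471). With 3 arrays in each of 2 groups, such a profile is mainly the difference between the groups, so the distance describes genes with a like difference. The members that did not pass lay nearest to other genes that did not pass, for example ANGPTL8 to PITPNA-AS1 (0.0142).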

How the data were processed

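Biotin-labelled RNA of 6 samples was measured on Affymetrix arrays. The deposited values are log2 levels per probe set made by the authors with RMA, per the submitters' processing notes; no source used here gives the array model, RMA version or genome build. The log2 scale was read from their range, 3.17 to 13.8. All arrays hold the same set of values, so a global shift in transcript amount would be invisible. Of 25582 probe sets, 24244 had 1 gene symbol in the platform annotation and 1338 none; for 3 symbols with several probe sets the brightest was kept, leaving 24241 genes. No detection calls were analysed, and the number of arrays limits the precision.

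Verteporfin was compared with DMSO by lmFit and eBayes of limma 3.58.1 (R 4.3.3), two-sided, with Benjamini-Hochberg adjustment over all genes and a threshold of 0.05. SE and 95% intervals are moderated. The steps were tested on simulated data. No permutation test was run, since 0.1 is the smallest two-sided p that this design allows. Replicate numbers did not pair the samples (correlations of deviations between same-numbered arrays -0.02, -0.11 and -0.01). Genes named are the 9 members, up to 4 genes with the smallest p in each of 8 lists, relatives and regulators fixed by name, and those marked otherwise. Members and lists were chosen with earlier results of these data known. Alternatives were a replicate block, trend and robust variance, array weights, filters, probe set choices, centring and single arrays left out.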

Additional observations from a re-analysis of the deposited data

How the results depend on the processing

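GDF15, INHBE, SELENOP and AGT kept their direction and stayed past the threshold in all 14 alternatives, with adjusted p from limma up to 0.000149, 0.000265, 0.00149 and 8.52e-05. FGF21, ANGPTL4, ANGPTL6, ANGPTL8 and LECT2 passed in none of those run. The smallest adjusted p among them was 0.0821, for ANGPTL4. FGF21 and LECT2 had no value with only genes above the median signal. The difference of ANGPTL8 ranged from -0.068 (without DMSO replicate 2) to 0.0020 with single arrays left out, turning positive without DMSO replicate 1. Single arrays also moved the other differences that did not pass by over 1.5 times. FGF21 ranged from 0.064 (without DMSO replicate 1) to 0.14, and ANGPTL4 from 0.11 to 0.29 (without DMSO replicate 2 and without DMSO replicate 3). ANGPTL6 ranged from -0.21 (without verteporfin replicate 3, and likewise without DMSO replicate 3) to -0.021 (without DMSO replicate 2, and -0.080 without verteporfin replicate 2). LECT2 ranged from 0.0021 to 0.087 (without verteporfin replicate 2 and without verteporfin replicate 1). With the replicate number as a block, 4 of the 9 genes passed, as before; the numbers share no pairing that the labels describe, and the count over all genes was 6359 against 6916. The activin and GDF list went from 7 genes to 4 with only genes above the median signal, since 14 of its 21 genes were then not tested. Counts of the other lists stayed within 1.5 times. Signal below the median of 4.83 limits what can be said of FGF21 and LECT2, and signal near it what can be said of ANGPTL6.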
